A study of Mus musculus with 168 samples.

Results

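*Mir221* and *Mir222* are neighbouring microRNA genes on the mouse X chromosome, and they were measured here in the cortex of *Htt* CAG knock-in mice, a model series of Huntington's disease. They are 2 of the 1626 transcripts in the count table, of which 1228 carry a GENCODE vM21 gene name, and were found by that name. The pair was selected on measured values, namely the log2 differences of both genes with CAG length and genotype at 6 and 10 months. The genotype contrasts at 6 and 10 months are therefore given as descriptions, without p-values for the pair, and so is the comparison of ages, which holds the same 10-month libraries. Contrasts other than these, namely genotype at 2 months, sex, the control genotypes and the ratio between the genes, are given with their tests.

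The study sequenced small RNA from 7 genotypes at 3 ages, with 4 females and 4 males per genotype and age. WT mice carry 2 unmodified *Htt* alleles. Q20, Q80, Q92, Q111, Q140 and Q175 mice are heterozygous, with C57BL/6 as the labelled strain, with 1 unmodified allele and 1 allele in which a human *HTT* exon 1 with about that many CAG repeats was knocked in. Each allele is a separate line, except that the Q175 allele arose from Q140 by spontaneous expansion, so a CAG length cannot be told apart from its line. At 2 and 10 months, mice of 1 sex and genotype came mostly from 1 cage by their sample names, and the names of the 6-month knock-in mice give no cage. The cages also held WT animals. Within a sex, a cage effect cannot be told apart from a difference of a mutant genotype from the controls. Q20 and WT mice of 1 sex and age shared 1 cage at 2 and 10 months, so these 2 genotypes were compared within cages. Q20 mice and their WT littermates served as controls, with the Q value of WT set to 7. Library totals ranged from 2041741 to 11646287 estimated counts (median 4810487). Fewer cells of a type and less RNA per cell cannot be told apart in whole cortex.

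The 8 WT libraries of 6 months stood apart from the 48 other libraries of that age and are shown separately. Their sample names are built like those of 2 and 10 months, and the study's methods do not list them. For 2 libraries, 1 of Q20 at 10 months and 1 of Q80 at 2 months, the labelled sex differed from that of the cage in the sample name. The cage decided the sex of these 2 libraries here.

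A microRNA gene is transcribed into a hairpin that is cut to a duplex, and 1 strand of it guides an Argonaute protein to messenger RNAs that pair with the seed, the bases 2 to 8 of the mature strand. *Mir221* and *Mir222* are commonly transcribed together, and their mature 3p strands share a seed and therefore many predicted targets. The pair is known for repressing the cell cycle inhibitor p27 and the receptor KIT, for roles in vascular smooth muscle and endothelium, and for expression in neurons.

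The *Mir221* gene lies at chrX:19146294-19146388 of GRCm38 on the minus strand and gives a transcript of 95 bases (ENSMUST00000083488). The *Mir222* gene lies at chrX:19146893-19146971 on the same strand, with a transcript of 79 bases (ENSMUST00000083537). The hairpins are separated by 504 bases, and *Mir222* is the upstream one. No other annotated gene overlapped the pair. The nearest is the processed transcript *Gm14636*, 10010 bases away on the same strand, and the nearest protein-coding gene is *Tex13c3*, at 332449 bases. The mature strands below come from RefSeq (GRCm38.p6) and are shown because the shared seed defines the family, with the seed in capitals.
mmu-miR-221-3p: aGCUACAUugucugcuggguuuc
mmu-miR-222-3p: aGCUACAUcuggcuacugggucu
mmu-miR-1928: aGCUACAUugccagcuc
mmu-miR-221-5p: aCCUGGCAuacaauguagauuucugu

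The 3p strands of miR-221 and miR-222 were identical over the first 8 bases and at 11 of 23 positions in all, counted from the 5' end without gaps. The seed occurred in 3 mature mouse strands of the table, of which miR-1928, from chromosome 1, was identical to miR-221-3p over its first 10 bases. The seed of miR-221-5p occurred in no other strand. The hairpins are shown with the mature strands above in capitals, because the counts are per hairpin and do not separate its arms.
Mir221 hairpin: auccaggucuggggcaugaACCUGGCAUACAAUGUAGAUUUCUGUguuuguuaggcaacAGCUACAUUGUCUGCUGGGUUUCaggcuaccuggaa
Mir222 hairpin: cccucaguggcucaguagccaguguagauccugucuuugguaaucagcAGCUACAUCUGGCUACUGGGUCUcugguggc

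Both genes were abundant. *Mir221* had between 5784 and 28075 estimated counts per library (median 11317) and *Mir222* between 4166 and 29002 (median 10304.5). Every one of these values was a whole number within 0.001, in 168 of 168 libraries. At the lowest count, counting error alone amounts to 1.31% for *Mir221* and 1.55% for *Mir222*, small beside the spread between mice. Levels below are counts per 1000000 (CPM), scaled by the trimmed mean of M values (TMM). Per kilobase of transcript, *Mir221* averaged 24448 CPM and *Mir222* 26909 CPM, which ranked them 42nd and 39th of 328 microRNAs. Without division by transcript length the order of the pair was reversed, at 2323 CPM for *Mir221* and 2126 for *Mir222*.

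At 10 months, Q175 cortex held less of both microRNAs than any control cortex. *Mir221* ranged from 1769 to 2025 CPM in the 8 Q175 mice (median 1915), from 2097 to 3061 in Q20 (median 2568) and from 2242 to 2576 in WT (median 2389). All 8 Q175 mice lay below the lowest of the 16 controls, and their mean was 77.2% of the control mean. For *Mir222*, the Q175 mice ranged from 1504 to 1848 CPM (median 1692), the Q20 mice from 1873 to 2192 (median 1991) and the WT mice from 1873 to 2245 (median 2056). Again 8 of 8 Q175 mice lay below every control, with a mean at 82.3% of that of the controls.

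**Figure D1:**
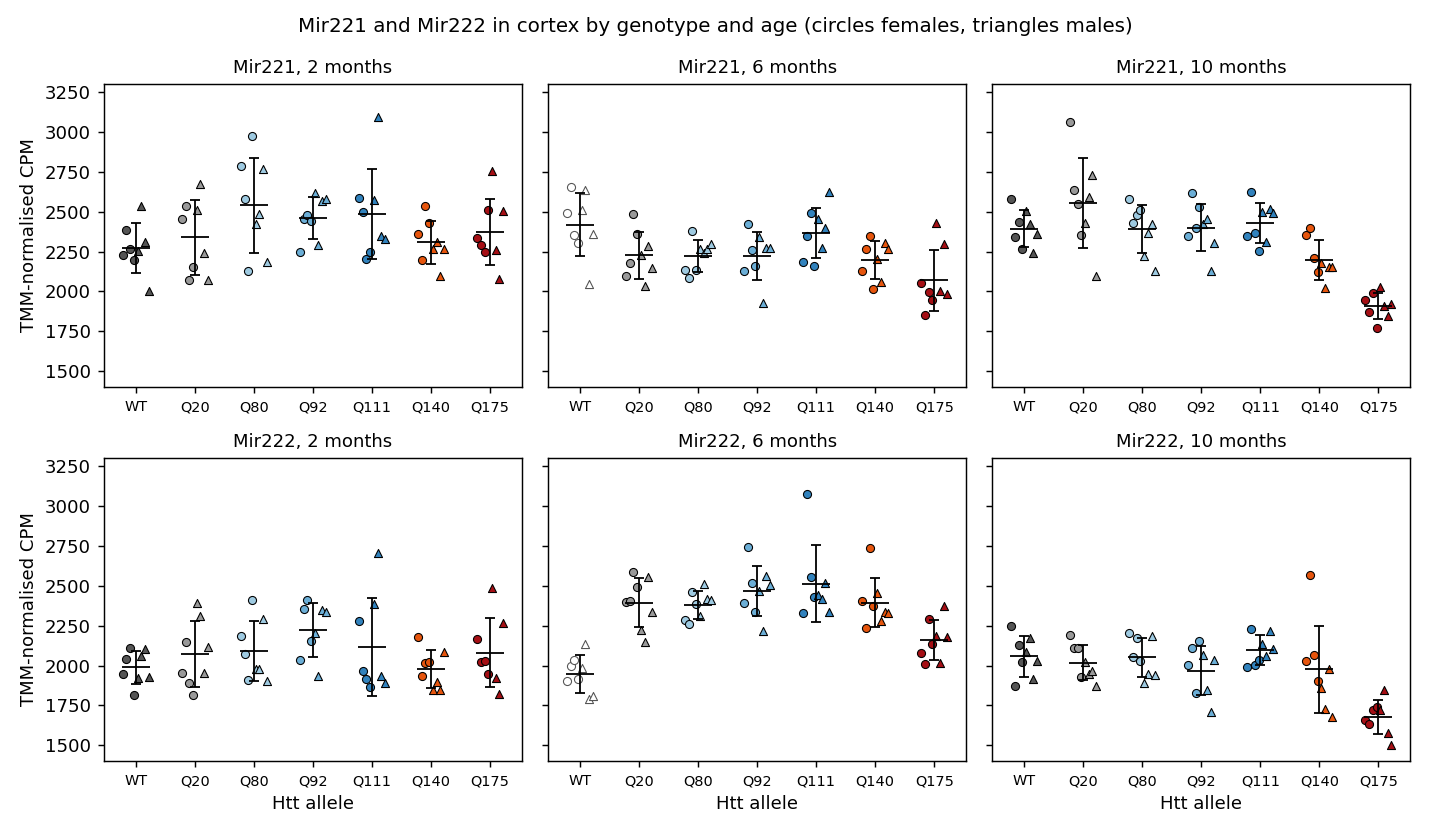
TMM-normalised CPM of *Mir221* (top) and *Mir222* (bottom) in each cortex library, by *Htt* allele and age, on an axis that starts above 0. Circles are females, triangles males, open symbols the WT libraries of 6 months, and bars the mean and SD of 8 mice. Both genes are lowest in Q175 at 10 months, where *Mir221* lies between 1769 and 2025 CPM.

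In the edgeR fit of Q175 against Q20 and WT at 10 months, the log2 difference was -0.39 ± 0.05 (SE) for *Mir221* and -0.30 ± 0.04 for *Mir222*. This contrast was among those that selected the pair. In it, 40 of 327 microRNAs passed a Benjamini-Hochberg adjusted p of 0.05 (12.2%), 18 higher and 22 lower. By unadjusted p the pair ranked 3rd and 4th, whereas by size of the decrease it ranked 42nd and 56th.

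By sex, among females at 10 months, *Mir221* averaged 1895 ± 97.2 CPM (SD, n = 4) in Q175 and 2527 ± 251 in controls (n = 8). Among males the averages were 1926 ± 73.5 CPM (n = 4) and 2421 ± 196 (n = 8). *Mir222* averaged 1690 ± 50.3 CPM in Q175 females against 2075 ± 127 in control females, and 1662 ± 154 against 2000 ± 97.5 in males.

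The values by lane number (the L code in the sample names) are given as a description. The separation of all Q175 mice from all controls fixes that within a lane number. In lane number 6, *Mir221* lay between 1872 and 2025 CPM in 3 Q175 libraries and between 2420 and 3061 in 7 controls. In lane number 7 the 4 Q175 libraries lay between 1848 and 1990 CPM and the 4 controls between 2338 and 2726. The only Q175 library in lane number 8 had 1769 CPM, and the 5 controls there had 2097 to 2436. For *Mir222* the ranges were 1634 to 1721 CPM in Q175 against 1946 to 2245 in controls in lane number 6, 1504 to 1848 against 1873 to 2020 in lane number 7, and 1740 against 1873 to 2125 in lane number 8.

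Q140 was the next lowest genotype for *Mir221* at 10 months. Its mice ranged from 2020 to 2397 CPM (median 2166), all 8 below the control median, though only 1 lay below the lowest control. The log2 difference from controls was -0.18 ± 0.05. For *Mir222*, the Q140 mice ranged from 1680 to 2565 CPM (median 1941), 3 of them below and 1 above all controls, and the log2 difference was -0.05 ± 0.05. The 4 Q140 males averaged 1812 ± 135 CPM of *Mir222* and the 4 females 2139 ± 292, a mean that included the female at 2565 CPM.

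The shorter alleles stayed near the controls at 10 months. For *Mir221*, the log2 difference was -0.06 ± 0.05 in Q80, -0.05 ± 0.05 in Q92 and -0.03 ± 0.05 in Q111. For *Mir222* it was 0.00 ± 0.04, -0.06 ± 0.04 and 0.04 ± 0.04. In the order of the *Mir221* means, Q20, Q111, Q92, WT and Q80 followed each other within 1 SD, and Q140 and then Q175 were each separated from the genotype above by more than the larger SD of the pair. In the order of the *Mir222* means, Q175 alone was separated in this way.

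**Figure D2:**
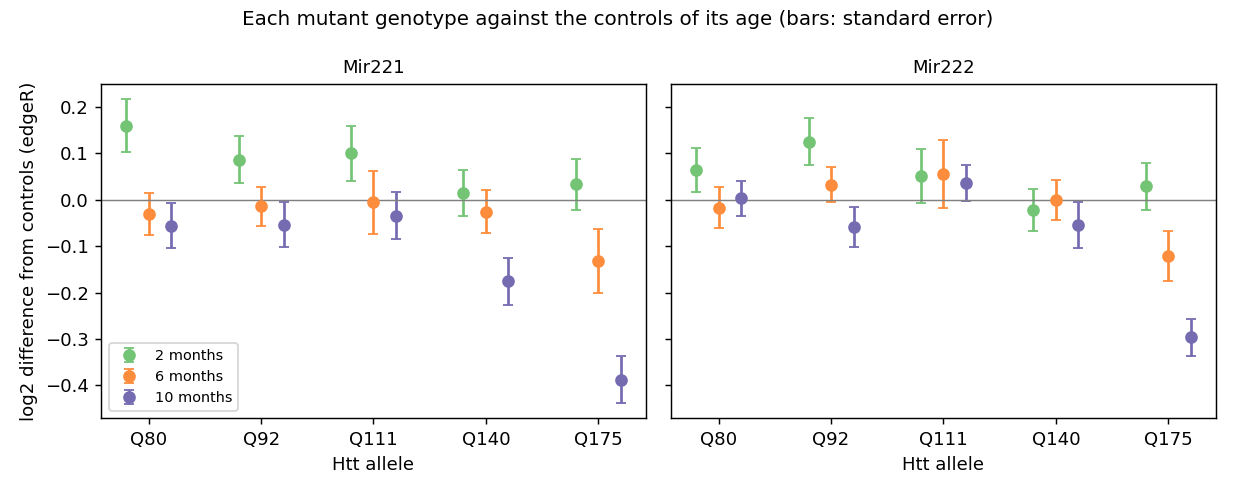
Log2 difference of each mutant genotype from the controls of its age for *Mir221* and *Mir222*, by edgeR. Points are estimates and bars standard errors, with the ages in 3 colours. Controls are Q20 and WT at 2 and 10 months and Q20 alone at 6 months. The largest decreases are those of Q175 at 10 months, -0.39 and -0.30.

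With CAG length as a numeric trait, *Mir221* fell by 0.18 ± 0.03 and *Mir222* by 0.12 ± 0.03 on the log2 scale per 100 CAG at 10 months. In this fit 29 of 328 microRNAs passed the threshold (8.84%). The slope rested largely on Q175. Without the Q175 mice, the value per 100 CAG was -0.09 ± 0.03 for *Mir221* and -0.02 ± 0.03 for *Mir222*, with 1 of 328 microRNAs past the threshold.

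At 6 months the same direction was seen in Q175, with a smaller size. *Mir221* ranged from 1851 to 2427 CPM in Q175 (median 2000) and from 2032 to 2482 in Q20 (median 2203), and 5 of 8 Q175 mice lay below the lowest of the 8 Q20 mice. *Mir222* ranged from 2012 to 2373 CPM in Q175 (median 2155) and from 2144 to 2586 in Q20 (median 2403), with 4 of 8 below the lowest Q20 mouse. The groups thus overlapped for both genes. The log2 differences were -0.13 ± 0.07 and -0.12 ± 0.05. Q140 had -0.03 ± 0.05 and 0.00 ± 0.04.

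Per 100 CAG, the 6-month values were -0.09 ± 0.03 for *Mir221* and -0.09 ± 0.03 for *Mir222*, in a fit in which 9 of 327 microRNAs passed the threshold (2.75%). In the LB libraries alone (a code in the sample names) they were -0.06 ± 0.03 and -0.05 ± 0.04. Without the Q175 mice they were -0.02 ± 0.04 and 0.02 ± 0.04, and with the WT libraries of 6 months added *Mir222* had 0.05 ± 0.04. No Q175 library of this age shared a lane number with a Q20 library. Lane numbers 1 and 2 held 5 Q175 and 6 Q80 libraries. Most of the Q175 libraries had number 1 and most of the Q80 libraries number 2, so lane was not matched. There *Mir221* lay between 1949 and 2297 CPM in Q175 and between 2084 and 2300 in Q80. *Mir222* lay between 2018 and 2373 CPM in Q175 and between 2257 and 2512 in Q80.

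At 2 months, neither gene was associated with CAG length. *Mir221* ranged from 2080 to 2753 CPM in Q175 (median 2312), 2072 to 2672 in Q20 (median 2345) and 2002 to 2537 in WT (median 2260). *Mir222* ranged from 1822 to 2482 CPM in Q175 (median 2023), 1813 to 2391 in Q20 (median 2035) and 1816 to 2111 in WT (median 1994). The groups overlapped throughout. The log2 change per 100 CAG was 0.02 ± 0.03 for *Mir221* and 0.01 ± 0.03 for *Mir222* (adjusted p = 0.999 for both, edgeR quasi-likelihood test). edgeR called 0 of 327 microRNAs in this fit (0%), with 13 at an unadjusted p under 0.05, and DESeq2 called 0.

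Against controls at 2 months, the largest log2 difference of *Mir221* was that of Q80, whose mice ranged from 2130 to 2975 CPM (median 2531) with 3 of 8 above every control. The difference of 0.16 ± 0.06 did not pass (adjusted p = 0.326, edgeR). For *Mir222* the largest was that of Q92, with 1933 to 2410 CPM (median 2268) and a log2 difference of 0.13 ± 0.05 (adjusted p = 0.222, edgeR). In Q175 the log2 differences were 0.03 ± 0.05 for both genes (adjusted p = 0.948 for both, edgeR). Each of the 5 genotype contrasts of this age had 0 calls by edgeR (0% of 326 or 327), with 27, 48, 16, 8 and 19 microRNAs at an unadjusted p under 0.05 for Q80, Q92, Q111, Q140 and Q175. DESeq2 called 2, 9, 0, 1 and 0.

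Between 2 and 10 months, the slopes on CAG length differed by -0.21 ± 0.04 per 100 CAG for *Mir221* and by -0.14 ± 0.05 for *Mir222*, as a description, since the 10-month values selected the pair. In group medians, *Mir221* went from 2312 CPM at 2 months to 1915 at 10 months in Q175, from 2345 to 2568 in Q20 and from 2260 to 2389 in WT. *Mir222* went from 2023 to 1692 CPM in Q175, from 2035 to 1991 in Q20 and from 1994 to 2056 in WT.

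Averaged over genotypes, the log2 difference of 10 from 2 months was -0.05 ± 0.02 for *Mir221* and -0.08 ± 0.03 for *Mir222* (edgeR, 56 libraries per age). This is a description, because the fit holds the Q140 and Q175 libraries of 10 months. In the controls alone, *Mir221* averaged 2305 ± 193 CPM at 2 months and 2474 ± 224 at 10 months (SD, n = 16), and *Mir222* 2031 ± 162 and 2038 ± 116, with neither mean lower at the older age. In this comparison 217 of 328 microRNAs passed the threshold (66.2%). The 2 ages carry separate blocks of sample numbers, so that age and any batch that follows these blocks cannot be told apart. Among libraries with lane number 7, which were 4 at 2 months and 25 at 10 months, the difference was 0.18 ± 0.06 for *Mir221* and 0.04 ± 0.07 for *Mir222*. The 4 came from 4 genotypes and the 25 from 7. Both ages repeat the same lane number and numbered LB code. The shared number therefore does not show a shared lane and does not separate age from batch.

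The genes lie on the X chromosome, and females were compared with males over all ages. The log2 difference of females from males was 0.01 ± 0.02 for *Mir221* (adjusted p = 0.824, edgeR) and 0.03 ± 0.02 for *Mir222* (adjusted p = 0.573, edgeR). At 10 months alone it was 0.06 ± 0.02 and 0.08 ± 0.03 (adjusted p = 0.489 for both, edgeR). Of the 328 microRNAs tested over all ages, 3 passed (0.915%). One of them, *Mir374b*, was the only one of 41 other X-linked microRNAs to pass, with 0.18 ± 0.03 more in females (adjusted p = 2.01e-06, edgeR).

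The dependence on CAG length at 6 and 10 months was not shown to differ between the sexes. The interaction of sex with CAG length was -0.07 ± 0.04 per 100 CAG for *Mir221* (adjusted p = 0.709, edgeR) and -0.01 ± 0.04 for *Mir222* (adjusted p = 0.998, edgeR). edgeR called 0 of 328 microRNAs (0%), with 19 at an unadjusted p under 0.05, and DESeq2 called 0.

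The control genotypes were compared at 2 and 10 months together. Q20 differed from WT by 0.06 ± 0.04 for *Mir221* (adjusted p = 0.830, edgeR) and by 0.01 ± 0.03 for *Mir222* (adjusted p = 0.977, edgeR). No call was made among 328 microRNAs by edgeR (0%) or by DESeq2, with 16 at an unadjusted p under 0.05 by edgeR. Within 10 months, the Q20 mean of *Mir221* was 2555 ± 282 CPM (SD, n = 8) and included the highest control at 3061, while the WT mean was 2393 ± 114.

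The ratio of the genes within a library does not depend on how libraries are scaled. The log2 ratio of *Mir221* to *Mir222* counts averaged 0.21 ± 0.09 (SD, n = 56) at 2 months and 0.23 ± 0.10 (n = 56) at 10 months, a difference of 0.03 (adjusted p = 0.440 over 3 tests, two-sided permutation test). It averaged 0.11 ± 0.19 in females and 0.13 ± 0.16 in males (n = 80 each, adjusted p = 0.719, permutation test). This test pooled the ages, so its spread includes the shift of the ratio at 6 months described below. Within ages, the female minus male difference was 0.02 at 2, -0.07 at 6 and -0.02 at 10 months. At 6 months females averaged -0.14 ± 0.08 and males -0.07 ± 0.09 (SD, n = 24 each), which was not tested. At 2 months the ratio was 0.19 ± 0.08 in Q175 (n = 8) and 0.18 ± 0.10 in controls (n = 16), a difference of 0.01 (adjusted p = 0.848, exact permutation test). At 10 months, as a description, the Q175 mice had 0.19 ± 0.11 and the controls 0.28 ± 0.10.

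**Figure D3:**
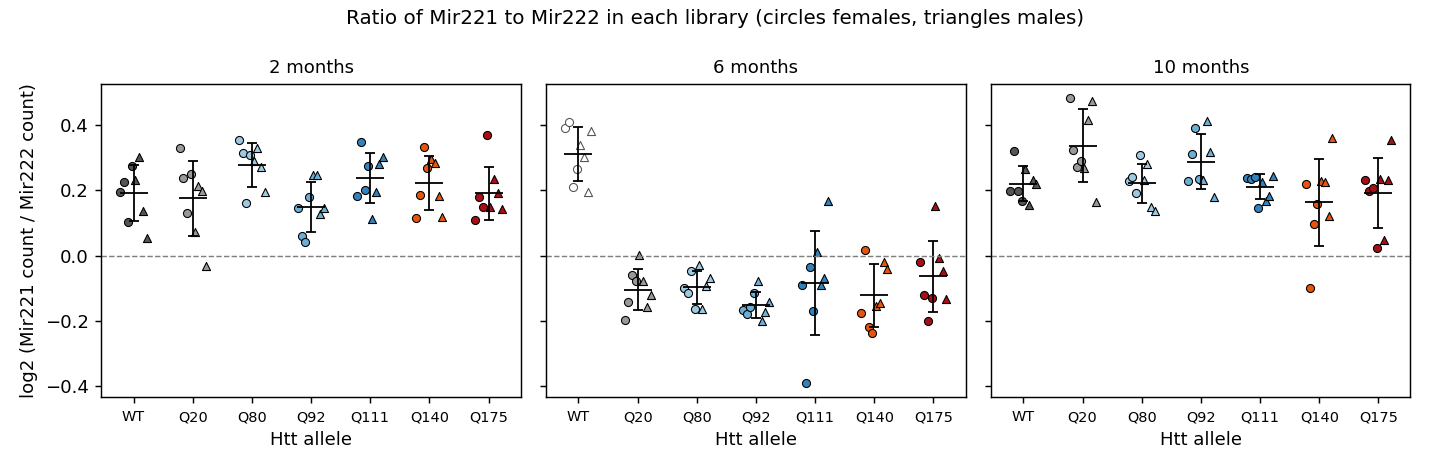
Log2 ratio of *Mir221* to *Mir222* estimated counts in each library, by *Htt* allele and age. Circles are females, triangles males, open symbols the WT libraries of 6 months, and bars the mean and SD. The ratio is mostly positive at 2 and 10 months and in 6-month WT, and mostly negative in the other 6-month libraries.

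At 6 months the ratio was of the other sign in every knock-in genotype. The 48 libraries from Q20 to Q175 ranged from -0.39 to 0.17, with 43 of them below 0, whereas 110 libraries of 2 and 10 months, all but 2, lay above 0. Group means at 6 months lay between -0.15 in Q92 and -0.06 in Q175. The sample names of 6 months carry the library codes LB or V. The 11 V libraries averaged -0.02 ± 0.10 and the 37 LB libraries -0.13 ± 0.08. Most of the V libraries were from males. In CPM, *Mir222* had a median of 2390 in these 6-month libraries against 2020 at the other ages, and *Mir221* 2251 against 2357.

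In the ratio of the pair, the WT libraries of 6 months resembled the other ages and not the knock-in libraries of their own age. Their ratio ranged from 0.19 to 0.41 (median 0.32), and all 8 lay above the highest of the 48. Against the 8 Q20 libraries of 6 months, which ranged from -0.20 to 0.00 (median -0.10), the difference was 0.41. The comparison was prompted by these values, and no test is given. Lane number 3 occurred in both kinds of library, with 8 WT libraries at 0.19 to 0.41 and 3 Q20 libraries at -0.16 to -0.08. WT and Q111 libraries of this age repeat the same lane number and numbered LB code. A shared lane number therefore does not show a shared lane. In CPM, *Mir222* ranged from 1788 to 2136 in WT (median 1951), below all 8 Q20 mice, and *Mir221* from 2044 to 2653 (median 2424), overlapping with Q20. Not all microRNAs of these WT libraries resembled the other ages. Those of vascular and blood cells, summed, had a median of 42815 CPM in these WT libraries and 38509 in 6-month Q20. The controls of 2 and 10 months had 23179 and 17919.

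In the edgeR fit of these WT against Q20 libraries, the log2 difference was 0.15 ± 0.06 for *Mir221* and -0.27 ± 0.05 for *Mir222*, as a description. Of 322 microRNAs 177 passed (55%), against none in the same genotypes at the other ages. Genotype and kind of library cannot be told apart here. The summed oligodendrocyte microRNAs (*Mir219a-1* and *Mir219a-2*) ranged from 190 to 506 CPM in these WT libraries and from 499 to 661 in Q20. The summed neuronal microRNAs ranged from 92671 to 138806 and from 79351 to 91268. The neuronal sum does not stand for its members. Of 11 neuronal microRNAs, 3 were called higher in WT, 4 lower and 4 not called, with a median of 0.05. The ranges of the other cell-type sums overlapped between WT and Q20. Those of vascular and blood cells were 22542 to 52577 CPM in WT and 34583 to 41788 in Q20. Those of microglia and leukocytes were 637 to 1266 and 626 to 686. For choroid plexus and ependyma they were 3527 to 6852 and 3968 to 10400. The activity-regulated microRNAs overlapped too, at 7011 to 10473 and 8049 to 8765. The part of these microRNAs in the result was not tested.

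**Figure D4:**
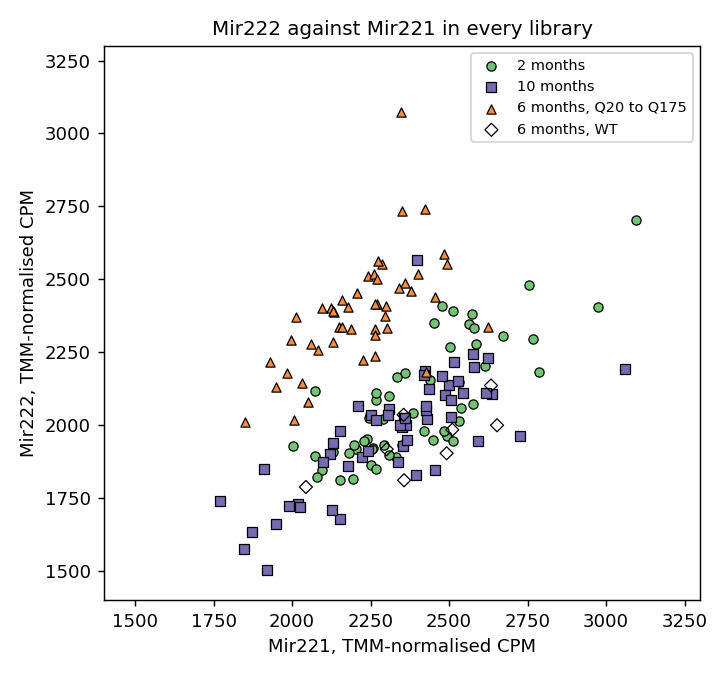
*Mir222* against *Mir221* in TMM-normalised CPM, 1 point per library, with axes that start above 0. The 48 knock-in libraries of 6 months form a band with more *Mir222* for the same *Mir221* (medians 2390 and 2251 CPM), and the 8 WT libraries of 6 months lie among those of 2 and 10 months (medians 2020 and 2357 CPM).

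The third microRNA with the seed, *Mir1928*, differed between these libraries too. It was not among the 329 microRNAs of the study's filtered list matched by symbol and was not tested. Its estimated counts were fractional in all libraries. Scaled by library total, it had 6.75 to 17.2 CPM in the 48 knock-in libraries of 6 months (median 10.3), 49.4 to 130 in the WT libraries of that age (median 89.9), and 2.08 to 255 at 2 and 10 months. At 10 months its median was 72.9 CPM in Q175 and 95.2 in controls.

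Across mice of 1 age, the genes rose and fell together. After subtraction of the genotype and sex means, the correlation of log2 CPM was 0.79 (Pearson) and 0.77 (Spearman) at 2 months (n = 56), 0.55 and 0.57 at 6 months (n = 48), and 0.55 and 0.60 at 10 months (n = 56). The adjusted permutation p-values over these 6 coefficients were 1.5e-05 at 2 and 10 months and 3e-05 at 6 months. With 100000 resamples the smallest unadjusted p is 1e-05. Without the 2 libraries farthest from the median of *Mir221*, Pearson's r was 0.76, 0.54 and 0.57. Within single lane numbers it ranged from 0.65 to 0.90 at 2 months and from 0.37 to 0.59 at 10 months, and at 6 months it was 0.64 in the LB and 0.33 in the V libraries. Both genes are divided by the same scaling factor in a library, which contributes to these values.

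Among 264 microRNAs with a mean of at least 10 counts, the one most like *Mir221* was *Mir222*, and the reverse, with r = 0.75 over 160 libraries after subtraction of the age mean and 0.67 after subtraction of genotype, age and sex means. The libraries share depth and lane, and no test is given. Next for *Mir221* came *Mir103-2* (0.50), *Mirlet7i* (0.48), *Mir138-1* (0.47) and *Mir132* (0.44). Next for *Mir222* came *Mir103-2* (0.52), *Mir107* (0.49), *Mirlet7i* (0.49) and *Mir132* (0.47). *Mir103-2* and *Mir107* are near-identical family members whose reads could be split between genes. After genotype, age and sex means were subtracted, *Mir103-2* had 0.66 with *Mir221* and 0.64 with *Mir222*, whereas *Mir132* had 0.19 and 0.28. Least like *Mir221* were *Mir376c* (-0.40), *Mir181b-1* (-0.40) and *Mir872* (-0.37), and least like *Mir222* were *Mir376c* (-0.37), *Mir5100* (-0.37) and *Mir15a* (-0.36).

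The activity-regulated microRNAs *Mir132* and *Mir212*, transcribed from 1 locus and induced by CREB in neurons, fell in Q175 at 10 months by 0.36 ± 0.06 and 0.36 ± 0.06 on the log2 scale (adjusted p = 0.000121 and 4.52e-05, edgeR). *Mir134*, the remaining member of that list, had -0.01 ± 0.05 (adjusted p = 0.904, edgeR). The list was chosen with earlier results of these data known, so these p-values are a description and not an independent test. The median of the list was -0.36, beside -0.01 over all microRNAs tested other than the pair. The summed level of the 3 genes was 6722 to 7778 CPM in Q175 and 7600 to 11204 in controls.

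Markers of cells in which the pair is also known were set beside the decrease at 10 months, and their part in it was not tested. These lists too were chosen with earlier results known, and their p-values are a description. Over all 325 other microRNAs tested, 18 rose and 20 fell, with a median of -0.01. Of 4 microRNAs of vascular and blood cells none passed in Q175, with a median of -0.07, and their sum was 16426 to 21876 CPM in Q175 and 16906 to 24072 in controls. Of 11 neuronal microRNAs 3 fell, namely *Mir128-1*, *Mir128-2* and *Mir124a-3* by 0.16 ± 0.05, 0.20 ± 0.04 and 0.42 ± 0.14 (adjusted p = 0.0375, 0.00163 and 0.0447, edgeR), and the median was -0.14. Their sum ranged from 93976 to 105882 CPM in Q175 and from 97594 to 115932 in controls. Of 10 microRNAs of choroid plexus and ependyma 3 fell, and the median was -0.31. The 3 were *Mir204* (-0.72 ± 0.23), *Mir1298* (-1.40 ± 0.43) and *Mir1912* (-1.86 ± 0.59). The sum of the list was 3513 to 4092 CPM in Q175 and 3484 to 13815 in controls. None passed among 2 oligodendrocyte microRNAs (*Mir219a-1* and *Mir219a-2*, median 0.02) and 2 of microglia and leukocytes (*Mir155* and *Mir150*, median 0.13). The other markers listed for these cells, and some of those of vascular and blood cells, were not among the microRNAs tested. No tested microRNA of these lists was at 0 in a group. Of 40 other X-linked microRNAs 1 rose and 3 fell, and the median was 0.00. Those that fell were *Mir448* and, counted above as well, *Mir1298* and *Mir1912*.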

How the data were processed

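Small RNA of cortex was sequenced as single-end 36-base reads, processed with CASAVA 1.8.2 per the submitters' processing notes, and, per the study's methods, aligned to mm10 with STAR and counted with HTSeq by the authors. The deposited tables hold 1 row per Ensembl transcript. Expected counts (estimated counts, not whole for many transcripts) were deposited unnormalised and were rounded here, and the FPKM deposited by the authors served only as an alternative for the ratio. The members and the gene lists were chosen with earlier results of these data known.

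The features were the 329 microRNAs of the study's filtered list matched by symbol; a fit kept those with 1 count or more in its libraries. edgeR 4.0.16 (R 4.3.3) was used with TMM factors, library size as the total over all transcripts, robust quasi-likelihood tests and Benjamini-Hochberg adjustment at 0.05. Covariates were the cage's sex and, for 6-month mice, the code in the library name. Lane numbers were read from the L code in the sample names, which name no sequencing run. Libraries coded V were given no lane number. DESeq2 1.42.0 was an alternative. Ratios were log2 of counts plus 0.5, tested with scipy 1.17.1. Genes other than the pair were named by shared seed, by list membership, by highest (5) and lowest (3) likeness to the pair, or as X-linked microRNAs called by sex. The fits were tested on simulated data. RLE factors, library size alone, filterByExpr, all transcripts, the labelled sex, lane and replicate block were tried. Replicate numbers did not pair mice: deviations from group means correlated at a median of 0.04, -0.14 and 0.00 between same-numbered mice of different genotypes at 2, 6 and 10 months. p-values measure the spread between mice, and at 2 and 10 months the mice of 1 sex and genotype mostly shared 1 cage. For the ratio by sex, that spread includes the shift between ages.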

Additional observations from a re-analysis of the deposited data

Results flagged for a closer look

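In 63 groups of 8 values (both genes and their ratio in 21 genotype and age groups), 5 held a library far from the others; chance gives about 1 in 20. The *Mir221* level of male 2 in Q111 at 2 months was 3094 CPM, with the next at 2584. The *Mir222* level of female 2 in Q111 at 6 months was 3074 CPM against 2552 for the next, that of female 2 in Q140 at 10 months was 2565 against 2065, and that of female 3 in Q140 at 6 months was 2735 against 2454. The log2 ratio of female 4 in Q175 at 2 months was 0.37, with the next at 0.23.

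The WT libraries of 6 months were left out of the main comparisons and entered only as an alternative at 6 months. Their log2 ratio of *Mir221* to *Mir222* was higher than that of the Q20 libraries of the same age by 0.41, with no overlap between the 8 and 8 libraries. The comparison was prompted by these values, and no p is given.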

How the results depend on the processing

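Of 561 values recomputed under alternative settings, 513 kept their direction and their side of the threshold or stayed within the spread. The decrease of Q175 at 10 months kept its direction for both genes under every alternative run, between -0.43 and -0.38 for *Mir221* and between -0.32 and -0.28 for *Mir222*. The cause of the changes below was not tested. Values are log2 differences, per 100 CAG for slopes.

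With Q20 as the only controls at 2 months, the slope became -0.019 for *Mir221* and -0.025 for *Mir222*, the Q140 value of *Mir221* became -0.0046 and the Q175 value of *Mir222* -0.0077. With lane as covariate the 2-month Q140 value of *Mir222* became 0.0024. At 2 months Q80 had 1 call with library size alone and 2 with DESeq2, Q92 had 9 with DESeq2, 4 with filterByExpr, 5 with lane and 3 with all genotypes in 1 fit, and Q140 had 1 with DESeq2. Neither gene of the pair was among them. Between ages, where 10-month libraries of the selection enter, *Mir221* moved past the threshold with RLE factors (-0.060), library size alone (-0.13), DESeq2 (-0.060), filterByExpr (-0.068), all transcripts (-0.087) and the replicate block (-0.055), and the lane number 7 libraries gave 0.18 for *Mir221* and 0.037 for *Mir222*. The calls between ages were 366 over all transcripts and 97 in lane number 7.

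The interaction of sex with CAG length became 0.0018 (RLE) and 0.0017 (DESeq2) for *Mir222*, and 4 transcripts passed when all were tested. The sex difference was -0.0076 for *Mir221* at 2 months and -0.0065 at 6 months, and -0.026 for *Mir222* at 2 months. Q20 minus WT was -0.037 for *Mir222* at 10 months. With medians in place of means the ratio differed by 0.011 between sexes and by -0.040 between Q175 and controls at 2 months.

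At 6 months the *Mir222* slope became 0.055 with the WT libraries and 0.022 without Q175. With the WT libraries the Q175 value was -0.23 for *Mir221* and -0.024 for *Mir222*. Calls on CAG length were 20 over all transcripts, 15 with the replicate block, 156 with the WT libraries, 15 without the library code, 3 in LB libraries alone and, without Q175, 0 by edgeR with 28 at an unadjusted p under 0.05 (DESeq2 was not run there). At 10 months the *Mir222* slope without Q175 was -0.017, with 1 call, and Q175 had 26 calls over all transcripts. The replicate block changed no other result of the pair, and the replicate numbers did not pair the mice.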
